A study of Mus musculus with 6 samples.

Results

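Myeloid C-type lectin receptors are surface proteins of macrophages, monocytes, dendritic cells and neutrophils that bind sugars, lipids and products of dying cells through a lectin fold. A set of 10 genes of this kind was examined in mouse left ventricle: Clec7a, Clec4n, Clec4d, Clec4e, Clec5a, Clec4a2, Clec12a, Clec4a1, Clec4a3 and Clec10a. A transcript cluster, the unit of the array that stands for a gene or transcribed region, was taken for a gene only if the platform annotation gave that symbol and no other. Where a gene had several clusters, the brightest by its mean over the 6 arrays was selected, although each of the 10 genes had 1 cluster only. They are 10 of 30176 genes with a cluster of their own among 65956 clusters tested. The set was chosen by earlier results of the same AAV9-Rbm24 and AAV9-GFP hearts, so its values and its counts are given as a description.

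RNA came from left ventricles of male C57/Bl6 mice, with 1 array per heart, and the study asked how raised levels of Rbm24, an RNA-binding splicing factor, affect the postnatal heart. In the AAV9-Rbm24 group (n = 3 hearts), an adeno-associated virus of serotype 9 carried a flag-tagged mouse Rbm24 reading frame behind a CMV promoter. In the AAV9-GFP group (n = 3 hearts), a virus of that serotype encoded green fluorescent protein. Every animal therefore received virus, 4000000000000 vg (viral genomes) into the peritoneum at 1 week of age, and was sacrificed 2 weeks after the injection. AAV9 reaches mainly cardiomyocytes in the heart, the CMV promoter is not restricted to 1 cell type, and no uninjected heart was analysed here. The labels number the hearts 1 to 3 in each group.

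The family works through a small number of signalling routes. Activating receptors carry a tyrosine motif in their own tail or borrow the adaptors FcRγ (Fcer1g) or DAP12 (Tyrobp). By these they recruit the kinase Syk and, through Card9, reach NF-kB and cytokine genes. Some also pair with the adaptor DAP10 (Hcst). Inhibitory receptors carry an ITIM motif that recruits the phosphatases SHP-1 (Ptpn6) and SHIP-1 (Inpp5d), and the balance between both kinds sets how strongly a myeloid cell answers to microbes and damaged tissue.

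The promoters of 4 members are shown because they span the outcomes on the array, with 3 genes that rose in AAV9-Rbm24 hearts (Clec7a, Clec12a and Clec4a1) and 1 near the background signal in both groups (Clec4e). Each run is the RefSeq sequence of build GRCm38.p6, 300 bases long, mostly upstream of the annotated start of the gene and reaching a little past it, 5′ to 3′ on the gene's strand. Capitals mark GAGGAA or its complement TTCCTC, the core of sites for PU.1, a transcription factor that directs myeloid gene expression.
Clec7a (chr6:129472730-129473029, minus strand): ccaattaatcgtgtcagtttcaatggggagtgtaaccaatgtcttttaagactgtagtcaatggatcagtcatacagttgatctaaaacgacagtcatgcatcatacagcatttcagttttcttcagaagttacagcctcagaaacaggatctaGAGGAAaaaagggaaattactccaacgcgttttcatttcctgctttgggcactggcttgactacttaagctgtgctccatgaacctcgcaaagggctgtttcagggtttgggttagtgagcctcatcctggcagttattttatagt
Clec12a (chr6:129349994-129350293, plus strand): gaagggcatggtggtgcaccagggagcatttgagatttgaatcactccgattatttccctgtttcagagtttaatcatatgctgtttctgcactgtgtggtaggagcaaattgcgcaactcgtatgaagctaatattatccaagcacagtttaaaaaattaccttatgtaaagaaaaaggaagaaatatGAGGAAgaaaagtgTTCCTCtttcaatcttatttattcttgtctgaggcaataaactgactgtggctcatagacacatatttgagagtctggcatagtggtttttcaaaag
Clec4a1 (chr6:122921598-122921897, plus strand): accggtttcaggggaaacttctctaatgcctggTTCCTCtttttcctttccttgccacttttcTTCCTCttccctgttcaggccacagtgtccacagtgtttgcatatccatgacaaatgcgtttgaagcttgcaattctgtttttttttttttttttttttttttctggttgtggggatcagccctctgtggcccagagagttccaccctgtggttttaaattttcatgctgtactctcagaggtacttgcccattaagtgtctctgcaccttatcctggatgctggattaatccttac
Clec4e (chr6:123289822-123290121, minus strand): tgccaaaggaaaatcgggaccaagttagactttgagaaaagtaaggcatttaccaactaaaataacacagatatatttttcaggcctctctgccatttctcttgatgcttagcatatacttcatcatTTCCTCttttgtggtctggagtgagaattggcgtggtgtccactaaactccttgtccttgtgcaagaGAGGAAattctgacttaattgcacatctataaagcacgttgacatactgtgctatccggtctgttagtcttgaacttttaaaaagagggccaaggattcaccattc

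Windows were at hand for 8 of the 10 genes (10 windows in all). Searched on both strands, GAGGAA stood in the windows of 7 of these 8 genes, all but Clec4a2, and in 28.3% of all 32851 windows of that length. Relative to the annotated start, the first base of the match lay at -96 in Clec7a, at -61 and -47 in Clec12a, at -217 and -187 in Clec4a1, and at -123 and -56 in Clec4e. The match was thus present both in genes that rose and in Clec4e. The TATA box string TATAAA, counted on either strand and at any position, was found for Clec7a, Clec4e, Clec4a2 and Clec5a and in 13.6% of all windows. In Clec7a the match was the complement TTTATA in the last bases of the window, past the annotated start, so no TATA box is shown there. TGANTCA, of the AP-1 type, was found for Clec12a and Clec4a2 (7.81% of all windows), and TTGCNNAA, of the C/EBP type, for Clec12a and Clec4e (10.8% of all windows). The Clec12a match was the full palindrome TTGCGCAA (0.183% of all windows). Longer strings that contain or overlap GAGGAA were GAGGAAG, found for Clec12a, Clec4a1, Clec4d and Clec5a (13.6% of all windows), and GAGGAAGT (3.20%) and AGGAAGT (9.35%), found for no member. Both NF-kB type strings, a longer consensus of the factor (1.63% of all windows) and GGGAANTCC (1.24%), and the E-box CACGTG (7.15%) were also without a match in the member windows. The Sp1 type string GGCGGG was found for Clec5a (35.3% of all windows), the E-box CATGTG for Clec4a2, Clec4a3, Clec4d and Clec5a (14.2%), and the E-box CAGTTG for Clec7a (13.7%). The strings were chosen with the values and windows known, and a match describes letters, not binding.

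As a check of the labels, Rbm24 had log2 signals of 14.58, 14.74 and 15.12 in AAV9-Rbm24 hearts, against 13.95, 13.63 and 13.57 in AAV9-GFP hearts, with no overlap (log2 difference 1.10 ± 0.17 SE, limma adjusted p = 0.0607). The 10 cardiomyocyte genes examined, which define the tissue, were far above the array medians in every heart, with a mean log2 signal between 17.72 and 17.79 in AAV9-Rbm24 hearts and between 17.78 and 17.89 in AAV9-GFP hearts. Signals are log2 values after RMA (robust multi-array average), with a median per array between 5.49 and 5.67, and arrays correlated with each other at r between 0.988 and 0.996 across clusters. AAV9-GFP replicate 2 stood apart, with a first principal component score of -64.3, against -9.74 and 0.762 in the other AAV9-GFP hearts and 15.2, 16.8 and 41.4 in AAV9-Rbm24 hearts. Probes differ in brightness, so a level is set here only against the array median and never against the level of another gene.

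Of the 10 receptor genes, 5 rose in AAV9-Rbm24 hearts and none fell at a limma adjusted p under 0.05: Clec7a, Clec12a, Clec4a1, Clec4n and Clec4a2. Over all clusters, 0.241% were called higher and 0.0258% lower by that rule. At an unadjusted p under 0.05, 8 members were higher (4.08% of all clusters) and 0 lower (4.33% of all clusters). The thresholds of the study's methods, a fold of at least 1.5 with an unadjusted p under 0.05, were passed upward by 7 members (1.23% of all clusters) and downward by 0 (0.552% of all clusters). In 8 of 10 members every AAV9-Rbm24 heart lay above every AAV9-GFP heart, as in 7.01% of all clusters, while no member had all AAV9-Rbm24 hearts below the AAV9-GFP hearts, as in 7.71% of all clusters. The median log2 difference was 0.97 over the members and -0.027 over all clusters. Since these were whole ventricles, more cells that carry a receptor and more receptor RNA per cell cannot be told apart. With 1 heart left out, 0 members were called higher without AAV9-Rbm24 replicate 1 or 2 or without AAV9-GFP replicate 1, 2 or 3. Over all clusters, these fits called 35, 13, 7, 0 and 28 higher in that order, against 159 with all hearts. Without AAV9-Rbm24 replicate 3, 2 members (Clec7a and Clec12a) and 90 of all clusters were called higher. All 10 differences stayed above 0 in each of these fits.

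**Figure D1:**
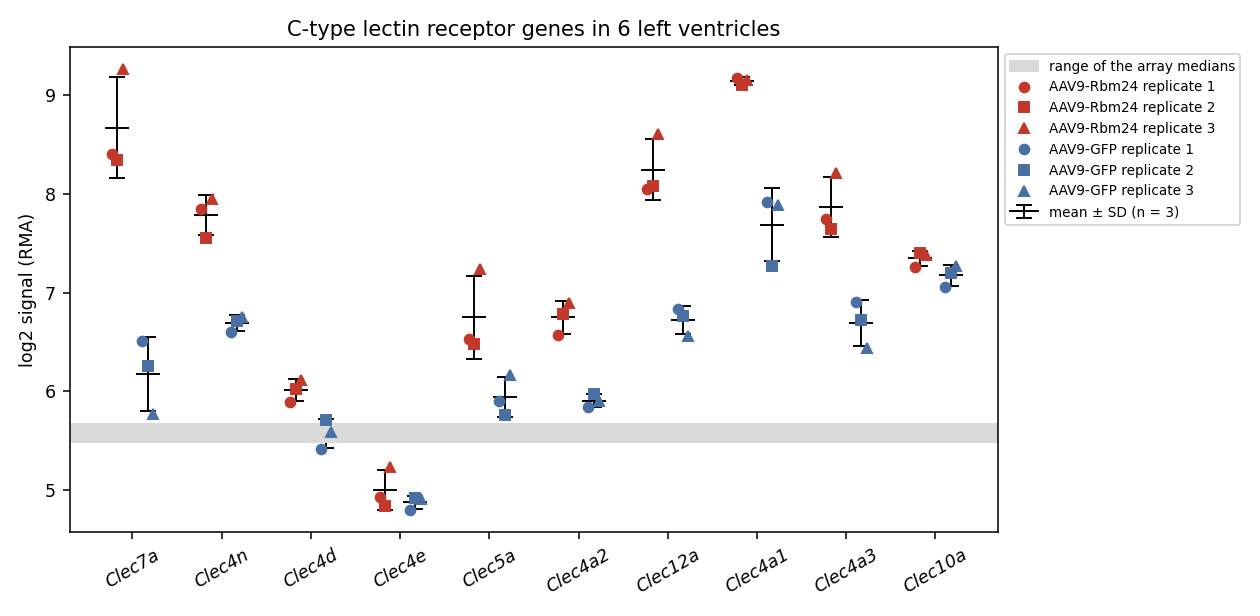
Log2 RMA signal (vertical axis) of the 10 receptor genes in 3 AAV9-Rbm24 hearts (red, left of each pair) and 3 AAV9-GFP hearts (blue), with marker shape for the replicate number, black bars for the mean ± SD (n = 3) and a grey band for the range of the array medians. The groups are apart for every gene but Clec4e and Clec10a, and AAV9-Rbm24 replicate 3 is the highest heart for 8 of 10 genes.

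Clec7a encodes Dectin-1, the β-glucan receptor that signals to Syk through a single tyrosine motif of its own. Its log2 signal was 8.40, 8.34 and 9.26 in AAV9-Rbm24 hearts and 6.51, 6.26 and 5.77 in AAV9-GFP hearts. Every AAV9-Rbm24 heart was well above the AAV9-GFP hearts, with replicate 3 highest in the AAV9-Rbm24 group and lowest in the AAV9-GFP group. The log2 difference was 2.49 ± 0.28 (SE), a 5.62-fold rise (95% interval 1.85 to 3.13 on the log2 scale, limma adjusted p = 0.0225). This was the largest difference of the 10 genes, and the next, Clec12a, had an interval whose upper end (1.91) overlapped that of Clec7a.

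Clec4n encodes Dectin-2, which binds mannose-rich structures of fungi and signals through FcRγ. AAV9-Rbm24 hearts had 7.85, 7.56 and 7.95 and AAV9-GFP hearts 6.60, 6.71 and 6.76 on the log2 signal scale. Both groups were tight, and the gap between them was wider than the spread within either. The rise was 1.09 ± 0.13 (SE) on the log2 scale, or 2.13-fold (95% interval 0.80 to 1.39, limma adjusted p = 0.0241).

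Clec4d (MCL) and Clec4e (Mincle) form a pair that recognises mycobacterial glycolipid through FcRγ, and Clec4e also senses the nuclear protein Sap130 released from dead cells. The log2 signal of Clec4d was 5.89, 6.02 and 6.12 in AAV9-Rbm24 hearts, against 5.42, 5.72 and 5.59 in AAV9-GFP hearts. The groups did not overlap, but the signals lay close to the array medians and the difference of 0.44 ± 0.12 (SE; 95% interval 0.16 to 0.71) did not pass (limma adjusted p = 0.296). Clec4e had 4.93, 4.84 and 5.23 in AAV9-Rbm24 hearts and 4.80, 4.92 and 4.91 in AAV9-GFP hearts. All 6 of its values were below the median of their arrays and the groups overlapped, with a log2 difference of 0.12 ± 0.13 (SE; 95% interval -0.17 to 0.41, limma adjusted p = 0.846). Near the background an RMA difference understates a change in RNA, and the interval for Clec4e applies to the signal.

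Clec5a encodes MDL-1, a receptor of monocytes, macrophages and neutrophils that pairs with DAP12 and DAP10. Its log2 signal reached 6.53, 6.48 and 7.24 in AAV9-Rbm24 hearts, against 5.91, 5.76 and 6.17 in AAV9-GFP hearts. AAV9-Rbm24 replicate 3 stood above the other hearts of its group, and the groups did not overlap. The difference of 0.81 ± 0.21 (SE; 95% interval 0.31 to 1.30), 1.75-fold, passed the thresholds of the methods but had a limma adjusted p of 0.288.

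Among the inhibitory receptors, Clec12a (MICL), which recognises uric acid crystals and dead cells, had 8.05, 8.08 and 8.60 in AAV9-Rbm24 hearts and 6.84, 6.77 and 6.56 in AAV9-GFP hearts on the log2 signal scale. No hearts overlapped, and replicate 3 was again the highest of the AAV9-Rbm24 group and the lowest of the AAV9-GFP group. Its rise was 1.52 ± 0.17 (SE) on the log2 scale, 2.87-fold (95% interval 1.13 to 1.91, limma adjusted p = 0.0224). Clec4a2 (DCIR), an ITIM receptor that restrains dendritic cells, had 6.57, 6.79 and 6.90 in AAV9-Rbm24 hearts, against 5.84, 5.97 and 5.90 in AAV9-GFP hearts. The AAV9-GFP hearts lay within a narrow band below all AAV9-Rbm24 hearts, and the rise was 0.85 ± 0.12 (SE), 1.80-fold (95% interval 0.58 to 1.11, limma adjusted p = 0.0402).

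Clec4a1 and Clec4a3 are close relatives of Clec4a2 in the mouse. Clec4a1 had 9.18, 9.10 and 9.15 in AAV9-Rbm24 hearts and 7.91, 7.27 and 7.89 in AAV9-GFP hearts on the log2 signal scale. The AAV9-Rbm24 hearts were almost level, AAV9-GFP replicate 2 was the lowest heart, and the rise was 1.45 ± 0.18 (SE), 2.74-fold (95% interval 1.04 to 1.86, limma adjusted p = 0.0287). Clec4a3 had 7.75, 7.65 and 8.21 in AAV9-Rbm24 hearts, against 6.90, 6.73 and 6.44 in AAV9-GFP hearts. Its groups did not overlap either, with a difference of 1.18 ± 0.18 (SE), 2.27-fold (95% interval 0.76 to 1.60), above that of the called gene Clec4a2 but with a limma adjusted p of 0.0607. Genes of the Clec4a and Clec4b group are similar in sequence, and whether their probes share signal was not tested.

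Clec10a encodes MGL1, a galactose-type lectin of macrophages and dendritic cells that is often used as a marker of alternatively activated macrophages. It had 7.26, 7.40 and 7.38 in AAV9-Rbm24 hearts and 7.06, 7.20 and 7.26 in AAV9-GFP hearts on the log2 signal scale. AAV9-Rbm24 replicate 1 lay level with AAV9-GFP replicate 3, so that the groups touched, although all 6 signals were clearly above the array medians. The log2 difference was 0.17 ± 0.10 (SE), with a 95% interval of -0.07 to 0.41 (limma adjusted p = 0.719), and that interval lies below the intervals of the 5 genes that rose.

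Of the members, 9 lie on chromosome 6 and Clec10a on chromosome 11 in the RefSeq gene table. A first stretch of chromosome 6 runs in the order Clec4a1, Clec4a3, Clec4a4, Clec4b1, Clec4a2, Clec4b2, Clec4n, Clec4d and Clec4e. The 3 genes inside it that are no members, Clec4a4, Clec4b1 and Clec4b2, had log2 differences between -0.10 and 0.32 and 0 were called. A second stretch runs from Clec12a through Clec12b, Clec1b, Clec9a and Clec1a to Clec7a, and the 4 genes between its ends, among them the platelet receptor Clec1b and the dendritic cell receptor Clec9a, differed by -0.12 to -0.06, with 0 called. Of these 7 genes inside the stretches, 6 had a mean signal below the median over clusters, where a change in RNA would be understated, and Clec1a was the exception. The genes on either side of the first stretch, named by position, were Necap1 next to Clec4a1 (log2 difference 0.20, limma adjusted p = 0.731), then C3ar1, the receptor for complement fragment C3a, which rose by 2.01 on the log2 scale (limma adjusted p = 0.00831), and beyond Clec4e the receptors Vmn2r19 (-0.17) and Vmn2r20 (0.10), which were not called. In the absence of a test of neighbourhood, these orders are a description.

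**Figure D2:**
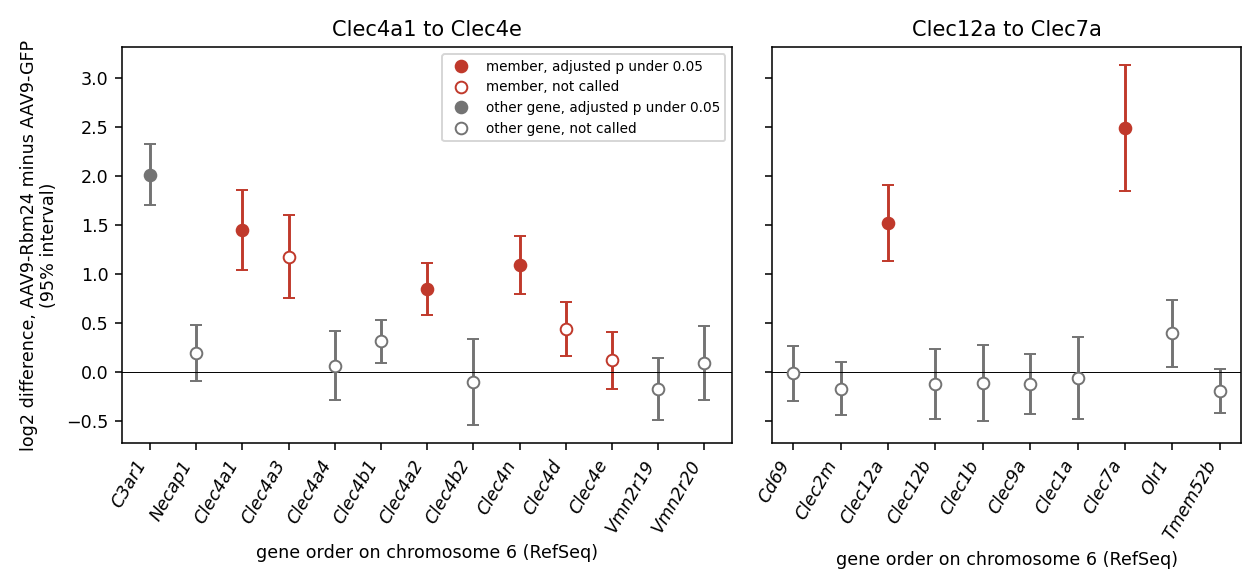
Log2 difference between AAV9-Rbm24 and AAV9-GFP hearts (vertical axis, points with 95% intervals) for the genes of both chromosome 6 stretches in RefSeq order, members in red and other genes in grey, filled where the adjusted p is under 0.05. The 4 genes between Clec12a and Clec7a, of which all but Clec1a had dim signals, lie near 0.

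Of 8 general leukocyte genes 2 rose, Cd53 and Ptprc (0.241% of all clusters were called higher). Without overlap 7 were higher (7.01% of all clusters), 5 of them not called, and Arhgdib overlapped. Each member was also set against the mean log2 signal of these 8 genes (Ptprc, Laptm5, Coro1a, Itgb2, Cd52, Cd53, Rac2 and Arhgdib) on the same array, a comparison chosen after the values were seen and given without a test. The mean of these 8 genes was 7.77, 7.87 and 8.33 in AAV9-Rbm24 hearts and 7.01, 7.06 and 7.07 in AAV9-GFP hearts. On this relative log2 scale Clec7a remained higher by 1.54 and Clec12a by 0.58, and for both every AAV9-Rbm24 heart lay above every AAV9-GFP heart. Clec4e, Clec10a and Clec4d were lower by 0.82, 0.77 and 0.51, without overlap. Their own log2 signals differed by 0.12, 0.17 and 0.44. Because the subtracted mean was itself higher in every AAV9-Rbm24 heart, a gene of unchanged signal comes out lower on this scale. The other 5 overlapped, with differences of 0.51 (Clec4a1), 0.23 (Clec4a3), 0.15 (Clec4n), -0.10 (Clec4a2) and -0.14 (Clec5a). Against 16 macrophage genes the same split of 2 higher, 3 lower and 5 overlapping was found. The shares of all clusters that are higher or lower on these scales were not examined. Clec4d and Clec4e were near the background, where a signal cannot follow a change in RNA fully, whereas Clec10a was not. What these relative differences owe to cell number was not tested.

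**Figure D3:**
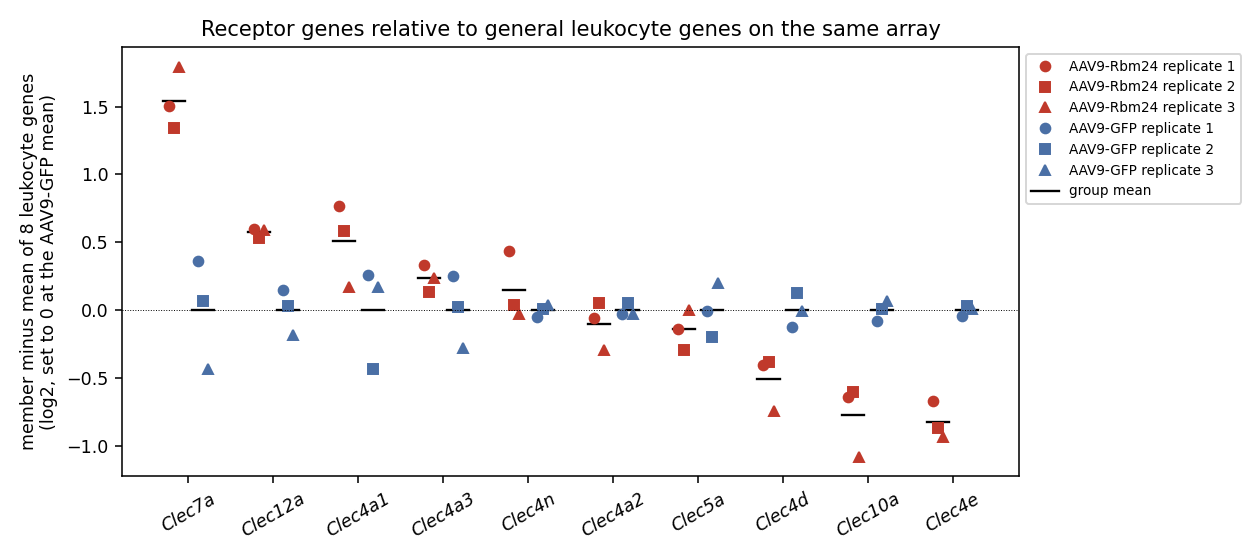
Log2 signal of each receptor gene minus the mean log2 signal of 8 leukocyte genes on the same array (vertical axis, set to 0 at the AAV9-GFP mean), in AAV9-Rbm24 hearts (red, left) and AAV9-GFP hearts (blue), with black lines for group means. Clec7a and Clec12a lie apart above 0 and Clec4d, Clec10a and Clec4e apart below 0. The subtracted mean was higher in AAV9-Rbm24 hearts, so a gene of unchanged signal would lie below 0 in them.

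Of 38 other C-type lectin receptors, 0 were called in either direction by limma and the median log2 difference was -0.02. The unadjusted p was under 0.05 for 7 that were higher (4.08% of all clusters) and 1 that was lower (4.33% of all clusters). The thresholds of the methods were passed upward by 3 (1.23% of all clusters) and downward by 0 (0.552% of all clusters). Of these 38, 22 had a mean signal below the median over clusters, and the median was 0.22 over the 13 whose mean log2 signal reached 6. The 4 with the smallest p were Mrc1, the macrophage mannose receptor (1.19 ± 0.22 SE, limma adjusted p = 0.104), Cd302 (0.50 ± 0.11), Clec2d, a ligand of an NK receptor (0.75 ± 0.21), and the collagen receptor Mrc2 (0.61 ± 0.17). Each of these 4, picked by p, was higher in all AAV9-Rbm24 hearts than in any AAV9-GFP heart, and none passed the adjusted threshold. Of all 38, 7 were higher without overlap (7.01% of all clusters) and 2 lower (7.71% of all clusters).

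Signalling partners of the activating receptors differed among themselves. Fcer1g, the adaptor of Clec4n, Clec4d and Clec4e, had log2 signals of 8.41, 8.24 and 9.11 in AAV9-Rbm24 hearts, against 7.17, 7.17 and 7.19 in AAV9-GFP hearts. The groups were far apart, and the difference of 1.41 ± 0.21 (SE) had a limma adjusted p of 0.0577. Tyrobp (DAP12) differed by 0.98 ± 0.19 (limma adjusted p = 0.122) without overlap, whereas Hcst (DAP10), whose signal was below the array medians, differed by -0.14 ± 0.13 (95% interval -0.44 to 0.15). The kinase Syk differed by 0.21 ± 0.11, with overlap (95% interval -0.05 to 0.48). Of 18 measured adaptors and proximal kinases 1 rose, Lcp2 (SLP-76), a scaffold downstream of Syk, by 0.98 ± 0.11 (limma adjusted p = 0.0224), and the list median was 0.31. At a minimum mean log2 signal of 8, which left 3 genes of this list, 0 were called and the median was -0.09, and 2 genes were called at a minimum of 6, with clusters of 1 symbol or with array weights. Blnk, a related scaffold, differed by 0.75 ± 0.15 and was not called. Of 17 measured genes of the Card9 and NF-kB relay 0 were called by limma and the median was 0.06. At an unadjusted p under 0.05, 1 was higher (4.08% of all clusters). Card9 itself differed by 0.13 ± 0.11 near the background, the subunit Rel by 0.67 ± 0.16 (limma adjusted p = 0.231), Rela by 0.22 ± 0.14, Nfkb2 by 0.13 ± 0.10 and Nfatc2 by -0.11 ± 0.09.

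On the inhibitory side, 4 of 14 genes rose and the median was 0.47 (0.10 over the 5 whose mean log2 signal reached 8). These were Lilrb4a, an inhibitory receptor of myeloid cells (2.92 ± 0.35 SE on the log2 scale, limma adjusted p = 0.0287), the Fc receptor Fcgr2b (1.66 ± 0.15, 0.0166), Pirb (1.41 ± 0.15, 0.0224) and the collagen receptor Lair1 (0.93 ± 0.10, 0.0233). The phosphatases that ITIM receptors recruit differed less, with 0.55 ± 0.13 for Ptpn6 (95% interval 0.24 to 0.86) and 0.55 ± 0.15 for Inpp5d (0.21 to 0.89), and neither was called, although the hearts did not overlap. Among 15 measured ligands and partner receptors 4 rose and the median was 0.86: Fcgr3, an activating Fc receptor that shares FcRγ (1.62 ± 0.15), Tlr4, the lipopolysaccharide receptor (1.48 ± 0.19), the tetraspanin Cd63 (1.10 ± 0.11) and galectin-3, Lgals3 (0.80 ± 0.10). Of 20 cytokines and enzymes that such receptors can induce 2 rose, the chemokines Ccl2 (1.48 ± 0.19) and Ccl3 (1.13 ± 0.14), while Ptgs2, the inducible cyclooxygenase (1.71 ± 0.34), and Casp8 (0.79 ± 0.13) were not called, and 11 of the 20 had mean signals below the median over clusters. No gene of any of these lists was called lower. With a heart left out, 0 to 3 genes were called in the inhibitory list, 0 to 2 among the ligands and partners, 0 to 1 among the adaptors and 0 to 1 among the cytokines. Over all clusters, 0 to 90 were called higher in these fits, against 159 with all hearts.

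**Figure D4:**
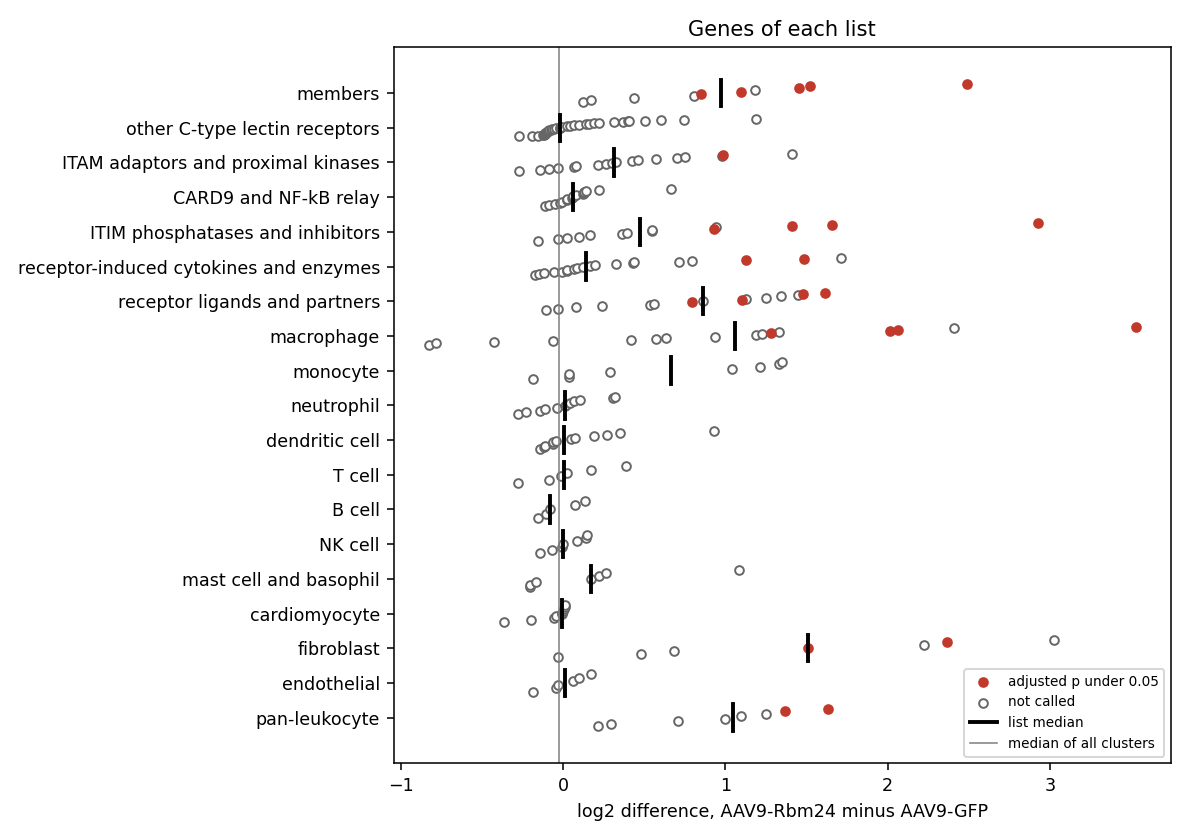
Log2 difference between AAV9-Rbm24 and AAV9-GFP hearts (horizontal axis) of every measured gene in the receptor set, 6 related lists and 12 cell type lists, red where the adjusted p is under 0.05, with a black bar for the list median and a grey line for the median of all clusters (-0.027). The receptor set (median 0.97), the macrophage list (1.06) and the fibroblast list (1.51) lie to the right, and the neutrophil (0.01) and other C-type lectin receptor (-0.02) lists lie near 0.

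Markers of the cells that carry these receptors differed from type to type. Of 16 macrophage genes 4 rose, Adgre1 (F4/80) by 2.01 ± 0.20 (SE), the complement genes C1qb by 2.06 ± 0.24 and C1qa by 1.28 ± 0.18, and lysozyme, Lyz2, by 3.53 ± 0.43 on the log2 scale, and the mean of the list was between 8.94 and 9.40 in AAV9-Rbm24 hearts and between 7.97 and 8.34 in AAV9-GFP hearts. The median of that list was 1.06, but its genes did not share a direction. Without overlap, 12 of the 16 were higher (7.01% of all clusters) and 3 lower (7.71% of all clusters). The lower ones, none called, were Timd4 (-0.83), Lyve1 (-0.78) and Cd163 (-0.42). Higher without overlap but not called were Cd68 (2.41), Fcgr1 (1.33), C1qc (1.23), Mrc1 (1.19), Csf1r (0.93), Cx3cr1 (0.63), Cd14 (0.57) and Mertk (0.42). For these uncalled genes, named after their values were seen, limma adjusted p was between 0.0519 and 0.600. The list gave 7 called genes at a minimum mean log2 signal of 6, and 8 called higher with 1 called lower, Timd4, among clusters with 1 symbol. Of 8 measured monocyte genes 0 were called by limma, and 4 were higher at an unadjusted p under 0.05 (4.08% of all clusters). These 4 were Ccr2, the receptor that brings monocytes into tissue (1.33 ± 0.20, limma adjusted p = 0.0607), Fn1 (1.35), Vcan (1.21) and Ace (1.04). The groups overlapped for Vcan, Ly6c2 (0.29), Plac8 (0.03), Spn (0.03) and Treml4 (-0.19), so the genes of this list did not move together. The list median was 0.67, and the list mean was between 8.32 and 8.87 in AAV9-Rbm24 hearts and between 7.87 and 7.94 in AAV9-GFP hearts. For neutrophils, which also carry Clec7a, Clec4d, Clec4e, Clec5a and Clec12a, 0 of 12 genes were called by limma and the median was 0.01. The unadjusted p was under 0.05 for 2 that were higher (4.08% of all clusters) and 1 that was lower (4.33% of all clusters). The list mean was between 5.03 and 5.05 in AAV9-Rbm24 hearts and between 4.98 and 5.13 in AAV9-GFP hearts, with 9 of 12 genes below the median over clusters.

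Dendritic cell genes gave 0 limma calls of 12 and a median of 0.00, with 2 higher at an unadjusted p under 0.05 (4.08% of all clusters). Itgax (CD11c, shared with macrophages) differed by 0.93 ± 0.21, and the list mean was between 6.16 and 6.19 in AAV9-Rbm24 hearts and between 5.98 and 6.11 in AAV9-GFP hearts. No gene was called of 6 T cell, 5 B cell, 7 NK cell, 7 mast cell and basophil, 10 cardiomyocyte or 6 endothelial genes, whose list medians were between -0.08 and 0.17. At an unadjusted p under 0.05, 1 T cell and 1 mast cell gene were higher (4.08% of all clusters) and 1 cardiomyocyte gene lower (4.33% of all clusters). Of the 10 cardiomyocyte genes 4 (Actc1, Tnnt2, Atp2a2 and Myh6) lay within 0.2 of the maximum of every array. At this ceiling a rise cannot be seen and a fall may be understated. Ryr2 (-0.36) and Tnni3 (-0.20) were lower without overlap and not called. Of the general leukocyte genes Cd53 rose by 1.63 ± 0.21 (SE) and Ptprc (CD45) by 1.37 ± 0.13. Fibroblast genes, which do not belong to the myeloid line, rose for 2 of 7, Col1a2 by 2.36 ± 0.32 and Lum by 1.51 ± 0.16 on the log2 scale. At an unadjusted p under 0.05, 6 of the 7 were higher (4.08% of all clusters). Among them were Postn (3.03, limma adjusted p = 0.0600) and Col1a1 (2.23, limma adjusted p = 0.0812), whereas Tcf21 differed by -0.03. The mean of the 7 genes was between 11.96 and 12.77 in AAV9-Rbm24 hearts and between 10.76 and 11.07 in AAV9-GFP hearts. With a heart left out, 0 to 4 macrophage, 0 to 3 fibroblast and 0 to 2 general leukocyte genes were called, and with clusters of 1 symbol 5 fibroblast genes were. Over all clusters, 0 to 90 were called higher with a heart left out and 216 with clusters of 1 symbol, against 159 in the main fit. The part of these cell types in the differences of the receptor genes was not tested.

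The mean log2 signal of the 10 members was 7.24, 7.23 and 7.60 in AAV9-Rbm24 hearts and 6.38, 6.33 and 6.33 in AAV9-GFP hearts. Among 10311 other named genes, the 5 whose signals over the 6 arrays ran most nearly parallel to this mean were Tmem176a (Pearson r = 0.9997), the lysosomal protease cathepsin S, Ctss (0.999), the lipid phosphatase Lpin2 (0.999), Ly86, the MD-1 partner of an innate receptor (0.997), and the growth factor Igf1 (0.997). Their log2 differences were 1.09, 3.03, 0.16, 1.79 and 2.13 in that order, so a like profile came with changes of very different size. The 6 arrays fall into 2 groups that differ in the members' mean, and a high r over them is a description of that split and of the position of AAV9-Rbm24 replicate 3.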

How the data were processed

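The authors deposited log2 signals, 1 value per transcript cluster and array, for 6 left ventricles on the Affymetrix Mouse Transcriptome Array 1.0. RMA and Affymetrix Expression Console are named in the submitters' processing notes. Tool versions and the library file were not stated, and the array's genome build is not given in the sources used here, so the only coordinates printed are those of the RefSeq promoter windows (GRCm38.p6). The array has 1 colour, and its values give no count of molecules, so that the number of arrays limits precision.

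Control entries (6732 of 72688) were removed and no filter on dim signals was applied. Symbols were read from the platform annotation and updated by RefSeq gene identifiers, which left 30638 clusters with 1 symbol, 2176 with several and 33142 with none. AAV9-Rbm24 was compared with AAV9-GFP by limma 3.58.1 in R 4.3.3 (lmFit, eBayes), with Benjamini-Hochberg adjustment over 65956 clusters and a threshold of 0.05. The unadjusted p was under 0.05 for 5546 clusters. An exact permutation test on 3 against 3 hearts cannot go below 0.1. Nothing in the labels tells the hearts of a group apart beyond their number. The fit was tested on simulated data.

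The members, lists and tests were chosen with earlier results of these data known. Genes named are all members, up to 4 genes of each list with the smallest p, 7 adaptors and phosphatases fixed by name (Fcer1g, Tyrobp, Hcst, Syk, Card9, Ptpn6 and Inpp5d), the 5 genes most like the members' mean (mean log2 signal of at least 6) and Rbm24. For the 12 lists of cell types, only genes that touch a result are named. As alternatives, dim clusters were dropped (mean log2 signal of at least 6 or 8) or clusters limited to those with 1 symbol, and the fit was repeated with an intensity trend, robust variances, renewed quantile normalization, median centring, array weights, a replicate block, the methods' analysis of variance, the mean of a gene's clusters, and each heart left out.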

Additional observations from a re-analysis of the deposited data

How the results depend on the processing

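Each of the 10 members kept a positive log2 difference under every alternative that included it, and the minimum signals left some members out. The count of members called higher, 5, was 0 to 2 with a heart left out, where 0 to 90 of all clusters were called higher. It was 0 under the methods' analysis of variance, the only possible count, since that analysis called 0 of all clusters (its smallest adjusted p = 0.135). At a minimum mean log2 signal of 8, which only Clec4a1 reached, 1 member was called and 1 passed the thresholds of the methods. The median difference of the members was 1.14 at a minimum mean signal of 6 (8 members left) and 1.45 at a minimum of 8. Fits without a heart rest on fewer samples. Clec4a3 was called at a minimum of 6 (limma adjusted p = 0.0492) and among clusters with 1 symbol (limma adjusted p = 0.0307). Fcer1g was called in 4 alternatives (lowest limma adjusted p = 0.0289). Among the related lists, the median of the receptor-induced cytokines was 0.96 over the 6 genes with a mean signal of at least 6, against 0.14 over all 20.

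Replicate numbers were shared by the groups, but same-numbered hearts deviated together only weakly (r = 0.0267, 0.0963 and 0.152), so the numbers were not taken as pairs. A replicate block left 0 members called, with limma adjusted p = 0.0660 for Clec7a, 0.0507 for Clec4a1, 0.0769 for Clec4a2, 0.0566 for Clec4n and 0.0620 for Clec12a, against 7 members still past the thresholds of the methods. Over all clusters, 76 were called higher with the block, against 159 without it. The block left 2 inhibitory genes, 2 ligands and partners, 1 cytokine, 0 adaptors, 0 fibroblast genes and 1 general leukocyte gene called, and 5 macrophage genes. The methods' analysis of variance called 0 in each of these lists, as it did over all clusters, so no list could have a call.

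For Clec4e, Clec4d, Hcst and Card9, signals near or below the array medians limit what a small difference can show.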
